A study of Mus musculus with 12 samples.

Results

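The 6 libraries taken before hormonal induction, of 12 in the series, were compared on their own: 3 labelled FHL2 (FHL2-GFP) at day 0 and 3 labelled control (CTRL-GFP) at day 0. They were chosen by their labels, with no use of any measured value. Both groups were 3T3-L1 cells, a mouse line of fibroblast-like preadipocytes that turns into fat cells when given hormones. Their cell type label is mesenchymal stem cells. Both carried a GFP construct and were kept in medium with 10% fetal bovine serum, and both were taken after confluence, when no inducer had been added. The genotype label of the first group is FHL2 overexpression, while the control group carried the GFP construct without FHL2. The promoter of the construct, the means of delivery and the number of clones behind each line are not stated in the labels, so a difference between the lines cannot be told apart from a difference between the cell populations that founded them. The other 6 libraries hold the same lines at day 2, after insulin, dexamethasone and isobutylmethylxanthine, and enter here only where the day 0 differences are followed to that day.

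FHL2 is a protein built of LIM domains, which bind other proteins and not DNA. It is known to move between focal adhesions, actin fibres and the nucleus, where it acts as a cofactor of transcription factors such as serum response factor and beta-catenin. A confluent preadipocyte lays down collagen-rich matrix, has left the cell cycle for the most part and expresses inhibitors of fat cell formation such as Dlk1. The comparison at day 0 addresses how the lines differed before differentiation began.

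Fhl2 itself, the gene named in the labels, did not separate the groups. Its level was 73.1, 65.0 and 68.7 CPM (counts-per-million of library total, TMM-scaled) in libraries 1 to 3 labelled FHL2, and 62.5, 66.0 and 70.1 CPM in control libraries 1 to 3. The groups overlapped, with means of 68.9 ± 4.06 and 66.2 ± 3.83 CPM (SD, n = 3), and the log2 difference was 0.06 (SE 0.0862, adjusted p = 0.782). The labels are thus not borne out by this gene's count, and every direction below is that of the libraries labelled FHL2 against those labelled control. Whether transcripts of the construct were counted as Fhl2 was not tested. Nfat5, which the title of the series places in a complex with FHL2 and whose product switches on genes of the response to salt stress, ranged from 524 to 657 CPM in the libraries labelled FHL2 and from 572 to 776 CPM in the controls (log2 difference -0.22, adjusted p = 0.339). Nfat5 was called lower when control replicate 3, its lowest control, was left out (log2 -0.34, adjusted p = 0.0209). It was also called lower with every library kept and no filter on low counts.

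The day 0 libraries held 14686042 to 21872139 counts each and detected 17977 to 18811 genes. Control replicate 3 stood apart. It had the fewest counts (14686042) and the lowest mitochondrial share (3.50%, against 4.13% to 4.48% in the others), and the genes lowest in GC content (31% to 43.7%) lay lower in it than in any other library. Counts of calls are therefore given with it, and most are also given without it. All 16 marker genes of fibroblast and preadipocyte identity passed the filter on low counts, summing to 35740 to 36120 CPM in the libraries labelled FHL2 and 34730 to 38160 CPM in the controls. Of markers of other cell types, the test covered 4 of 14 for muscle, 4 of 13 for macrophage and blood and 4 of 11 for endothelium. It also covered 5 of 11 neural and 5 of 14 bone and cartilage markers, and none of all these genes was called. None of the 11 epithelial markers was abundant enough to be tested. Without control replicate 3 the bone and cartilage list had 1 higher and the neural list 1 lower. The muscle list summed to 12.8 to 16.8 CPM against 15.1 to 22 CPM, and Myod1, Myog and Myf5 were among the 6 of its 14 genes with no count. The macrophage and blood list summed to 11.9 to 20.9 CPM against 11.3 to 14.8 CPM, and Adgre1, Tyrobp and Cd3e were among the 5 of its 13 genes with no count. The endothelial list summed to 21.2 to 24.6 CPM against 21.3 to 27.9 CPM, and the neural list to 38.3 to 40.9 CPM against 39.9 to 44.2 CPM. The bone and cartilage list was far higher in both groups, at 614 to 631 CPM against 576 to 663 CPM.

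Of 14044 genes tested at day 0, 246 (1.75%) passed an adjusted p of 0.05 in edgeR's quasi-likelihood test with Benjamini-Hochberg adjustment, and these are the genes called higher or lower here. They divided evenly by direction, with 126 higher (0.897% of genes tested) and 120 lower (0.854%) in the libraries labelled FHL2. Most differences were small. The median called gene differed 1.48-fold, 45 genes differed at least 2-fold (22 higher, 23 lower), and 91.2% of all tested genes lay within 1.5-fold. The groups did not overlap in any of the 246 called genes, nor in 21.6% of all genes tested. Nothing in the labels states that the 3 libraries of a group are separate cultures, and a p-value here measures only the spread between libraries, which may be technical. In bulk RNA, fewer cells of a type and less RNA per cell cannot be told apart.

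The number of calls depended on which libraries were in the fit. Without control replicate 3 it was 1034 (338 higher, 696 lower), which included 245 of the 246. Leaving out any other day 0 library gave 58 to 150 calls, with the fewest without control replicate 2 (58), FHL2 replicate 3 (60) and FHL2 replicate 2 (79). A core of 42 genes, 15 higher and 27 lower, was called in each of the 16 alternative analyses of the day 0 libraries. Those among the named genes are marked as core. Called genes not so marked lost their call under at least 1 alternative, or were not tested under one in the case of Ror2.

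**Figure D1:**
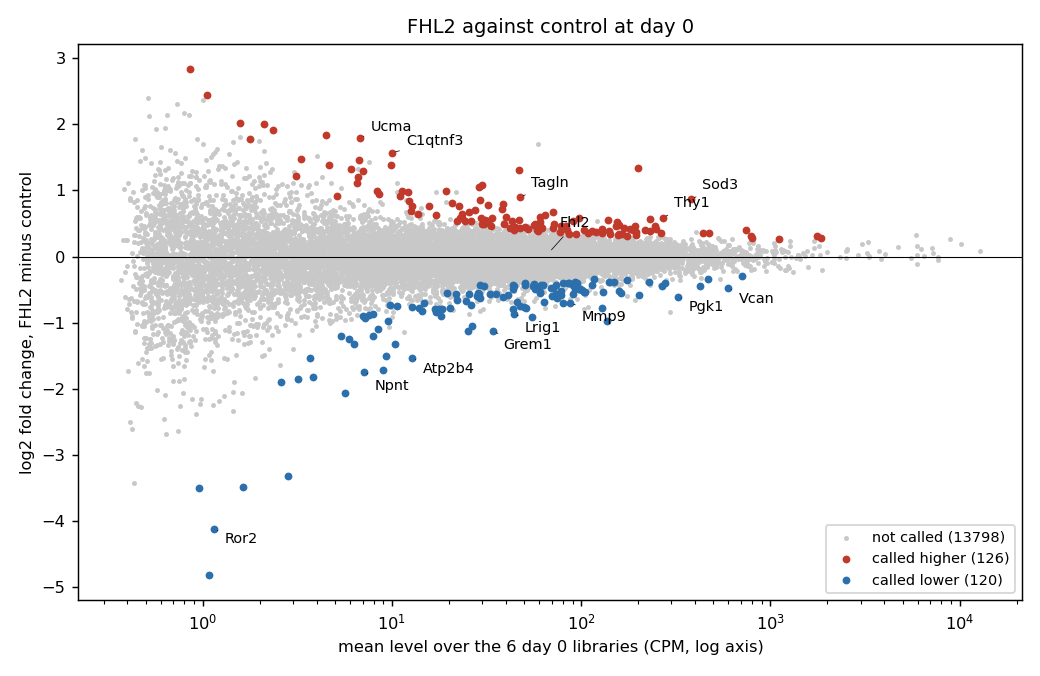
Log2 fold change (libraries labelled FHL2 minus control) of each of 14044 genes tested at day 0 against its mean level in CPM on a log axis. Red and blue points are the 126 genes called higher and the 120 called lower, grey points are not called, and Fhl2 lies near 0.

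Sod3, the extracellular superoxide dismutase that removes superoxide at the cell surface and in the matrix, had the firmest difference of any gene named by the rule. It measured 479, 484 and 511 CPM in the libraries labelled FHL2 and 278, 254 and 277 CPM in the controls. The groups were far apart, by a factor of 1.82 (log2 0.86, SE 0.068, adjusted p = 0.000138), and the gene belongs to the core of 42. It was the only one of 41 tested members of the NRF2, glutathione and antioxidant list to be called, and that list had a median log2 difference of 0.03, against 0.01 over all genes (2 higher and 2 lower without control replicate 3). Thy1, a surface glycoprotein used to mark fibroblasts and adipose progenitors, was also higher and in the core, at 317, 318 and 337 CPM against 202, 215 and 230.5 CPM (log2 0.59, adjusted p = 0.00282). The least of the libraries labelled FHL2 exceeded the highest control by a wide margin. Pdgfra, the receptor for platelet-derived growth factor that marks adipose progenitors, moved the other way, at 391.6, 436 and 405.5 CPM against 518, 509 and 533 CPM (log2 -0.34, adjusted p = 0.0239). Thy1 and Pdgfra were the only 2 of 14 tested progenitor surface markers called, 1 in each direction also without control replicate 3, and Pdgfra was lost in 5 of the 6 fits that left out a library (largest adjusted p 0.14).

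Among genes above a mean of 5 CPM the largest rises were of Ucma, C1qtnf3 and Cpm. Ucma, a secreted matrix protein of cartilage, measured 8.53, 8.81 and 14.2 CPM against 2.83, 3.10 and 3.18 CPM (log2 1.79, adjusted p = 0.0037). C1qtnf3, a secreted C1q and tumour necrosis factor related protein, measured 14.8, 14.6 and 15.7 CPM against 5.86, 5.02 and 4.19 CPM (log2 1.57, adjusted p = 0.00148). Both are in the core, and in Ucma the third FHL2 library was well above the other two. Cpm, the membrane enzyme carboxypeptidase M, varied more, from 6.11 to 12.5 CPM against 3.31 to 3.85 CPM (log2 1.46, adjusted p = 0.0156). Sorbs2, an adaptor of actin fibres, and Mdga1, a membrane-anchored adhesion protein, were 2.51-fold and 2.46-fold higher. The others by the same rule were Trim62, a ubiquitin ligase (2.15-fold), P3h2, a collagen prolyl 3-hydroxylase (1.99-fold), Hsf4, a heat shock transcription factor (1.98-fold), Parm1, a membrane mucin (1.93-fold), and Cox6a2, the muscle form of a cytochrome oxidase subunit (1.89-fold).

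The largest falls among genes above a mean of 5 CPM were of Macc1, Npnt, Msln and Atp2b4. Some scarcer called genes fell further, such as Ror2, which is described below. Npnt, nephronectin, a basement membrane ligand of integrins, measured 3.17, 2.70 and 3.94 CPM in the libraries labelled FHL2 against 12, 11.6 and 9.19 CPM in the controls (log2 -1.74, adjusted p = 0.00251). Msln, the surface protein mesothelin, measured 4.31, 5.62 and 2.68 CPM against 15.1, 13.2 and 13.0 CPM (log2 -1.71, adjusted p = 0.00399). Atp2b4, a plasma membrane calcium pump, measured 5.41, 6.86 and 7.25 CPM against 16.2, 19.8 and 20.9 CPM (log2 -1.54, adjusted p = 0.00148). All 3 are in the core, and the lowest control lay far above the highest library labelled FHL2. Macc1, a regulator of MET signalling, had the largest fold of the group, 4.17, but its controls were uneven, at 11.8, 10.6 and 5.07 CPM. Adam8, a membrane protease (2.85-fold lower), Ces1a, a carboxylesterase (2.31-fold) and Sema7a, a membrane-bound semaphorin (2.31-fold), also fell. Egln3, Lama5 and Igfbp6 complete the 10 and are described with their groups.

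**Figure D2:**
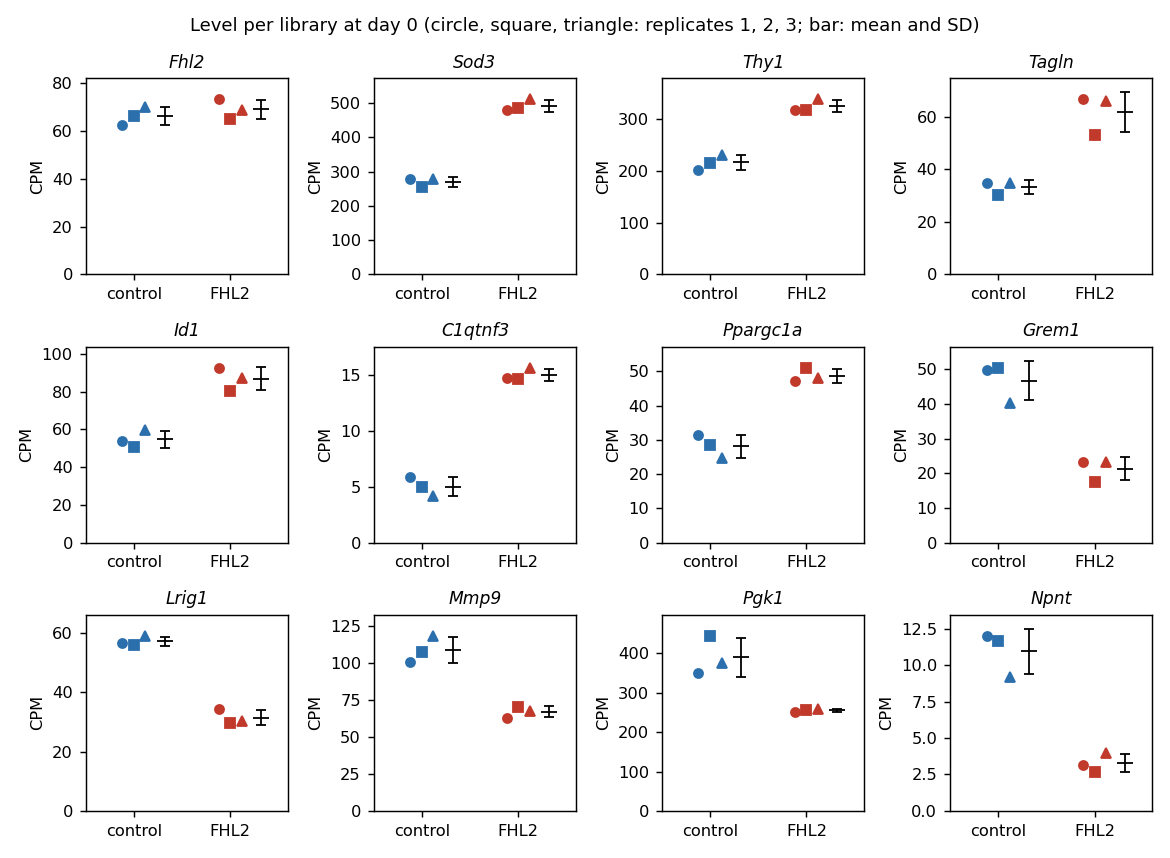
Level in CPM of 12 genes in each of the 6 day 0 libraries, with circle, square and triangle for replicates 1, 2 and 3 and a bar for the mean and SD of each group. Fhl2 overlaps between the groups, and each of the other 11 genes separates them.

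Genes of bone morphogenetic protein (BMP) signalling moved in both directions. BMPs are secreted ligands that act through SMAD proteins to switch on the Id genes, and secreted antagonists bind BMPs outside the cell and block them. Grem1 (gremlin 1, such an antagonist) measured 23.2, 17.5 and 23.4 CPM in the libraries labelled FHL2 against 49.7, 50.5 and 40.1 CPM in the controls, 2.19-fold lower (log2 -1.13, SE 0.134, adjusted p = 0.00251). Id1, an inhibitor of basic helix-loop-helix factors and a direct BMP target, measured 92.7, 80.6 and 87.5 CPM against 54.1, 50.6 and 59.6 CPM (log2 0.67, SE 0.0921, adjusted p = 0.00435). Neither gene overlapped between the groups, and both belong to the core. Id4, of the same family, was higher as well, at 15.2, 16.1 and 17.1 CPM against 9.84, 9.81 and 8.65 CPM (log2 0.77, adjusted p = 0.0176).

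Tgfb2, a transforming growth factor beta ligand, was 1.29-fold higher (adjusted p = 0.0346). Of 37 tested genes of the TGF-beta and BMP list 4 were called higher and 1 lower, or 13.5% against 1.75% of all genes. The median of the list was 0.06. Without control replicate 3 the list had 8 higher and 3 lower, and without any 1 of the other 5 libraries it had 1 to 3 higher and 1 lower. The list thus had calls in every such fit, with Grem1 and Id1 among them.

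Growth factors, their receptors and binding proteins gave 8 calls among 36 tested genes (22.2%), 4 higher and 4 lower, with a median of 0.01. Pdgfra, given above, was one of them. Lrig1, a membrane protein that lowers the level of epidermal growth factor (EGF) receptors, measured 34.3, 29.6 and 30.2 CPM in the libraries labelled FHL2 against 56.4, 55.8 and 58.9 CPM in the controls (log2 -0.86, SE 0.0948, adjusted p = 0.00148). The control libraries were almost level, and the gene is in the core. Egfr, the EGF receptor itself, measured 63.0, 66.3 and 62.3 CPM against 103.7, 85.2 and 86.4 CPM (log2 -0.52, adjusted p = 0.0158), and was named after its values were seen. Outside that list, Errfi1, an inhibitor of the same receptor, was 1.46-fold lower (adjusted p = 0.0211). Spry2, a feedback inhibitor of receptor tyrosine kinases, was 1.36-fold lower (adjusted p = 0.0399) and the only call among 31 immediate early genes, which had 4 lower without control replicate 3.

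Among the ligands, Vegfd, a vascular endothelial growth factor of lymphatic vessels, measured 162, 160.4 and 174 CPM against 109, 114 and 115 CPM (log2 0.56, adjusted p = 0.0037) and is in the core. Pdgfa, a platelet-derived growth factor chain and a ligand of the Pdgfra receptor, was 1.63-fold higher, at 32.2, 34.6 and 34.7 CPM against 20.9, 23.02 and 18.4 CPM (adjusted p = 0.0101), while its receptor was lower as given above. Igfbp7 and Igfbp6, which bind insulin-like growth factors, moved apart, with Igfbp7 1.33-fold higher (adjusted p = 0.0109) and Igfbp6 2.38-fold lower (adjusted p = 0.0192). Fgfr2, a fibroblast growth factor receptor named after its values were seen, was 1.30-fold higher (adjusted p = 0.0481). Leaving out control replicate 3 gave 4 higher and 6 lower in the list, and leaving out any 1 of the other 5 gave 1 to 4 higher and 1 to 3 lower.

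Of 27 tested genes of the Wnt pathway, which steers progenitors away from the fat cell fate, 2 were higher and 3 lower (18.5% called). Rspo3, a secreted R-spondin that strengthens Wnt signalling, was 1.88-fold higher, at 17.2, 13.6 and 12.3 CPM against 8.83, 8.24 and 5.74 CPM (adjusted p = 0.0361). Lgr4, a receptor for R-spondins, was 1.38-fold higher, at 94.7, 93.5 and 84.6 CPM against 68.5, 70.5 and 58.7 CPM (adjusted p = 0.0272). Porcn, which attaches the lipid that Wnt proteins need for secretion, was 1.66-fold lower (adjusted p = 0.0322), and Apcdd1, a Wnt inhibitor of the membrane, 1.47-fold lower (adjusted p = 0.039). Ror2, a receptor for Wnt5a, was all but absent from the libraries labelled FHL2. It measured 0.0917, 0.108 and 0.158 CPM there and 1.73, 2.63 and 2.16 CPM in the controls (log2 -4.12, SE 0.546, adjusted p = 0.0037), below the level of the naming rule and named after its values were seen. The median of the list was 0.02. It had 3 higher and 4 lower without control replicate 3, and without any 1 library other than control replicate 3 it had at most 1 higher and exactly 1 lower.

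Matrix proteases and their inhibitors were the list with the largest share of calls, 8 of 27 (29.6%). The 5 higher genes were Timp1 and Timp3, tissue inhibitors of metalloproteinases, Serpinf1, the secreted serpin PEDF, Ctsk, the collagen-degrading cathepsin K, and Adamts1, a protease of proteoglycans. The 3 lower were Mmp9 (gelatinase B), Mmp11 (stromelysin 3) and Plat, the tissue plasminogen activator. Mmp9 measured 62.8, 70.1 and 67.7 CPM in the libraries labelled FHL2 against 100.4, 107 and 118 CPM in the controls (log2 -0.70, SE 0.0876, adjusted p = 0.00291) and is in the core. Timp1, whose product inhibits MMP9, measured 126.7, 113 and 110.9 CPM against 80.6, 71.6 and 81.6 CPM (log2 0.58, SE 0.0876, adjusted p = 0.00724), and its call was lost without control replicate 2 (adjusted p = 0.0679).

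Serpinf1 was among the most abundant genes that changed, at 1990.0, 1928 and 1969 CPM against 1526, 1600.0 and 1604 CPM (log2 0.32, adjusted p = 0.014). Ctsk was 1.40-fold higher (adjusted p = 0.0135), Adamts1 1.20-fold (adjusted p = 0.0369) and Mmp11 1.35-fold lower (adjusted p = 0.0198). Timp3 was 1.27-fold higher (adjusted p = 0.0208) and Plat 1.31-fold lower (adjusted p = 0.0328), both named after their values were seen. The median of the list was -0.08, so that its members did not lean one way. Without control replicate 3 it had 7 higher and 5 lower, and without any 1 of the other libraries 0 to 4 higher and 1 or 2 lower.

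The structural matrix changed little as a whole. Of 21 collagens only Col11a1, a fibril-forming minor collagen, was called, at 148, 159 and 154 CPM against 208, 196 and 187 CPM (log2 -0.36, adjusted p = 0.032). Col1a1, the main chain of type I collagen, ranged from 5511 to 5873 CPM in the libraries labelled FHL2 and from 5877 to 6502 CPM in the controls (log2 -0.11, adjusted p = 0.342). Adamts2, the enzyme that trims procollagen before fibrils form, was the only call of 16 matrix crosslinking and processing enzymes, at 47.3, 49.4 and 49.2 CPM against 76.4, 72.3 and 85.4 CPM (log2 -0.68, adjusted p = 0.0037), and it is in the core. The collagens had, without control replicate 3, 1 higher and 2 lower and these enzymes 2 higher and 3 lower.

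Matricellular proteins and matrix glycoproteins had 3 higher and 3 lower of 50 tested (12%), with a median of -0.00276. There were 7 higher and 5 lower without control replicate 3, and without control replicate 2 there were 0 higher and 1 lower. Fmod, the collagen-binding proteoglycan fibromodulin, was lower at 32.02, 33.3 and 40.5 CPM against 51.1, 60.6 and 58.8 CPM (log2 -0.69, adjusted p = 0.0107). Lama5, a laminin chain of basement membranes, was 2.50-fold lower and in the core (adjusted p = 0.00724). Vcan, the large proteoglycan versican, measured 488, 520 and 480 CPM against 812, 702 and 564 CPM (log2 -0.48, adjusted p = 0.0432), with control replicate 3 closest to the libraries labelled FHL2. Tnc (tenascin C, a matricellular protein of remodelling tissue) and Lamb2 (a laminin chain), both picked after their values were seen, were 1.29-fold and 1.31-fold higher (adjusted p = 0.0261 and 0.0431). Of 33 tested integrins and focal adhesion genes, Itgb5, the beta chain of a vitronectin receptor, was lower and in the core, at 129, 134 and 134 CPM against 180, 192 and 209 CPM (log2 -0.55, adjusted p = 0.00447). Itga9, an integrin chain that binds tenascin C and was named after its values were seen, was higher, at 2.75, 2.65 and 4.78 CPM against 1.10, 0.818 and 0.541 CPM (log2 2.01, adjusted p = 0.0263). The integrin list had 2 higher and 2 lower without control replicate 3.

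The contractile genes Tagln, Myl9 and Acta2 were higher within an actin list whose median was near 0. Of 32 tested actin cytoskeleton and serum response factor (SRF) targets, 3 were higher and none lower (9.38% called), and the median was -0.06. Tagln (transgelin, an actin-binding protein of smooth muscle) measured 66.5, 53.1 and 65.8 CPM in the libraries labelled FHL2 against 34.7, 30.3 and 34.8 CPM in the controls (log2 0.89, SE 0.11, adjusted p = 0.00282) and is in the core. Myl9, a regulatory light chain of myosin, measured 177, 165 and 186 CPM against 121, 121 and 142 CPM (log2 0.46, adjusted p = 0.0198). Acta2, smooth muscle actin, measured 886, 751 and 912 CPM against 607, 602 and 721 CPM (log2 0.40, adjusted p = 0.0456). In all 3 genes the groups were apart, though in Acta2 the second library labelled FHL2 was only just above control replicate 3. Tagln alone was called without any 1 of the other 5 libraries, and without control replicate 3 the list had 4 higher and 3 lower. With upper quartile or RLE scaling Acta2 was not called.

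SRF binds the CArG box. To show where such a box lies, the 250 bases before the start of Myl9 are printed from RefSeq (build GRCm38.p6, plus strand, chr2:156775214-156775463), with the box in capitals:
Myl9: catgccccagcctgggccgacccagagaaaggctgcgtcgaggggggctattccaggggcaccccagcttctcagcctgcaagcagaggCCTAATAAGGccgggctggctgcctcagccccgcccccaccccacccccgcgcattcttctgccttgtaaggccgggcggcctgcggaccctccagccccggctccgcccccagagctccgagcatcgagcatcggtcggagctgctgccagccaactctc
The box reads as a match on both strands, and its middle lies 156 bases before the start. Only CC, then letters A or T alone, then GG counted as a match. Such a match was found on either strand in 1.47% of all 32851 promoter sequences of this length in the table. It was found in 1.14% of the 12461 promoters of tested genes, and not in that of Acta2. The Acta2 sequence does hold a near match, ccctatatgg, which the strict pattern leaves out. Of the 3 called genes Myl9 and Acta2 were matched in the table. A match of letters is a description and shows no binding.

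Glycolysis and hypoxia genes gave calls in 1 direction. Cells short of oxygen keep the hypoxia-inducible factors, which prolyl hydroxylases such as EGLN3 otherwise mark for destruction, and these factors bind short motifs near many genes of glycolysis and of mitochondrial turnover. Of 33 tested members 6 were lower and 0 higher (18.2%, against 0.854% of all genes called lower), and 28 of the 33 had a negative difference. The median was -0.22, against 0.01 over all genes. The summed level of the list was 5124 to 5202 CPM in the libraries labelled FHL2 and 5724 to 6639 CPM in the controls, without overlap.

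Pgk1 (phosphoglycerate kinase, which yields ATP in glycolysis) measured 251, 257 and 259 CPM against 350.1, 445 and 375 CPM (log2 -0.61, SE 0.0862, adjusted p = 0.00491). Egln3, the prolyl hydroxylase, measured 4.82, 7.78 and 5.26 CPM against 14.5, 16.6 and 13.2 CPM (log2 -1.32, SE 0.198, adjusted p = 0.00724). Both are in the core, and in Pgk1 the controls were scattered while the libraries labelled FHL2 were nearly equal. Pfkl (a phosphofructokinase, the committing step of glycolysis) measured 100.1, 113 and 105.7 CPM against 146.5, 170 and 146 CPM (log2 -0.54, adjusted p = 0.01). Tpi1 (triosephosphate isomerase) was 1.36-fold lower at 361, 368 and 353 CPM against 429, 533 and 508 CPM (adjusted p = 0.0192). Bnip3, a mitochondrial protein that promotes removal of mitochondria, was 1.48-fold lower (adjusted p = 0.048), and Ddit4, an inhibitor of mTOR complex 1, was 1.35-fold lower (adjusted p = 0.0361). The list kept its direction without any 1 library, with 12 lower without control replicate 3 and 2 to 6 lower without any 1 of the others. In the fit over all 12 libraries, whose shared spread is larger, it had 0 calls and a median of -0.24.

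**Figure D3:**
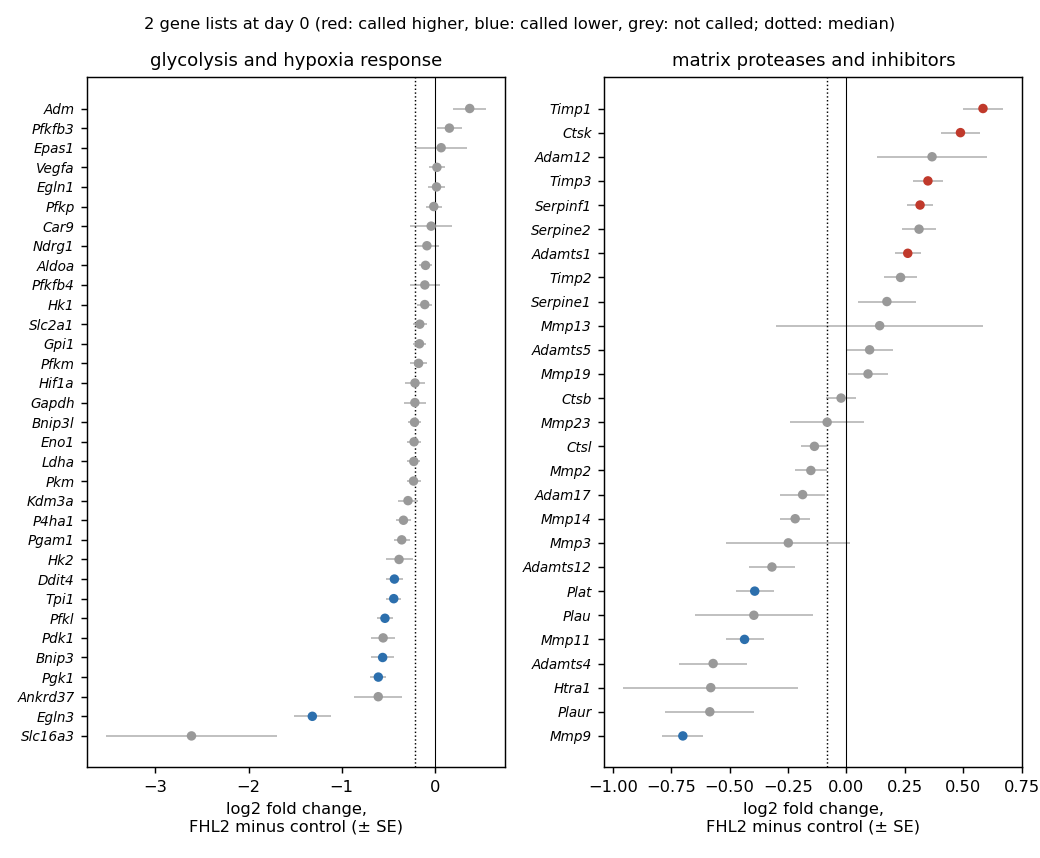
Log2 fold change (libraries labelled FHL2 minus control, with SE) of each tested member of 2 gene lists at day 0. Most members of the glycolysis and hypoxia list (33) lie left of 0, while the protease and inhibitor list (27) has calls on both sides.

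The hypoxia-inducible factors bind ACGTG and GCGTG. The 250 bases before the start are shown for Pgk1 and Egln3, the core members of the list, and for Bnip3, which has the most matches, from RefSeq (build GRCm38.p6), with either motif on either strand in capitals. Pgk1 lies on the plus strand at chrX:106186850-106187099, Egln3 on the minus strand at chr12:54203875-54204124 and Bnip3 on the minus strand at chr7:138909507-138909756.
Pgk1: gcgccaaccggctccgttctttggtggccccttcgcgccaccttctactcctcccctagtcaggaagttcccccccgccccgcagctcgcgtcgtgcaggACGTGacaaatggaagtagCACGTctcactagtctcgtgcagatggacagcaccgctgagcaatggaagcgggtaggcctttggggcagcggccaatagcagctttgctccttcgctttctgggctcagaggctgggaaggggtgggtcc
Egln3: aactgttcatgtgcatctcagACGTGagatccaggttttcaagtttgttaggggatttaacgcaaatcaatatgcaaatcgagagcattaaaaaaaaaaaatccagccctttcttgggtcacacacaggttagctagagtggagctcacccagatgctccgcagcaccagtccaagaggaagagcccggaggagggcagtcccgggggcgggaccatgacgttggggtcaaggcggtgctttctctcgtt
Bnip3: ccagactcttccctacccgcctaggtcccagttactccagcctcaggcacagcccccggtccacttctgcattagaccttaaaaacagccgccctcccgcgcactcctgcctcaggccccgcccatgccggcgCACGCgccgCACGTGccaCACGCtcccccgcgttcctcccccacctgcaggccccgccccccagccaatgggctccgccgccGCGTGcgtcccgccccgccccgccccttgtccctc
Pgk1 holds 2 matches, Egln3 1 and Bnip3 5, of which a pair overlaps on opposite strands in one palindrome. Of the 6 genes called lower, 5 hold at least 1 match and Tpi1 holds none. The same letters occur in 55.6% of the promoters of tested genes and in 38.6% of all promoters in the table, so they are common, and no binding was measured.

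Cholesterol synthesis genes had a similar median, with fewer calls. Of 25 tested genes 22 had a negative difference and 2 were called lower (8%), with a median of -0.21. Hmgcs1, an early enzyme of the pathway, measured 201, 204 and 192 CPM against 273, 277 and 229.9 CPM (log2 -0.39, adjusted p = 0.0369). The groups were apart, with control replicate 3 the lowest control. The summed level of the list did not overlap, at 1557 to 1655 CPM against 1812 to 1969 CPM. There were 5 lower without control replicate 3 and 0 or 1 without any 1 of the others. With every library kept and a correction for GC content there were also 5 lower.

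Interferon-stimulated genes had mostly negative, smaller differences. Of 40 tested, 32 had a negative difference with a median of -0.11, and 1 was called in each direction (5%). Gbp2, a guanylate-binding protein of antimicrobial defence, was 1.30-fold lower (adjusted p = 0.0409), and Ifi27, a mitochondrial interferon-induced protein, 1.5-fold higher (adjusted p = 0.0211). Without control replicate 3 the list had 11 lower and 1 higher, and without any 1 of the others 0 higher and at most 1 lower. With every library kept and a correction for GC content it had 8 lower and 1 higher. Of 36 tested inflammatory genes only Cxcl12, a chemokine of stromal cells, was called, at 636, 612 and 656 CPM against 761, 751 and 826 CPM (log2 -0.30, adjusted p = 0.0398), with a list median of -0.15 and 2 lower without control replicate 3. None of 19 tested genes of MHC class I presentation was called, with or without that library, and 1 was lower with the correction for GC content.

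Genes of fat cell formation showed few calls before induction. Of 19 tested adipogenic transcription factors 0 were called, with a median of 0.02, and without control replicate 3 there was 1 in each direction. Pparg, the master regulator of adipogenesis, measured 9.95, 10.3 and 8.52 CPM in the libraries labelled FHL2 against 10.4, 10.9 and 12.6 CPM in the controls (log2 -0.24, adjusted p = 0.498). Cebpa (log2 0.29, adjusted p = 0.486) and Cebpb (log2 -0.10, adjusted p = 0.74), which act with it, did not pass either. Cebpd, an early factor of the cascade, came closest, at 33.7, 25.0 and 27.5 CPM against 14.2, 20.5 and 20.9 CPM, without overlap (log2 0.64, adjusted p = 0.0691), and had an adjusted p of 0.0214 with the correction for GC content and 0.0114 without control replicate 3.

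Mature fat cell genes ranged from no count to well expressed. Of 27 listed, 7 had no count at day 0, among them Adipoq, Plin1, Lep and Cfd, and 16 were tested with 0 calls (2 lower without control replicate 3). The lipid enzymes of the list were present in both groups, with Scd2, a fatty acid desaturase, at 731 ± 67.0 against 844 ± 38.6 CPM (adjusted p = 0.19) and Lpl, the lipoprotein lipase, at 187 ± 17.3 against 153 ± 10.8 CPM (adjusted p = 0.118). Fabp4, a fatty acid carrier that marks fat cells, was at 0.263 to 0.459 CPM against 0.541 to 1.49 CPM (log2 -1.43, SE 0.569, adjusted p = 0.23). Of 21 tested preadipocyte and anti-adipogenic genes only Klf2, a zinc finger repressor of Pparg, was called, at 28.9, 25.0 and 25.6 CPM against 14.6, 13.9 and 17.0 CPM (log2 0.81, SE 0.125, adjusted p = 0.00825), and it was lost without control replicate 2 (adjusted p = 0.0704). That list had 3 higher and 1 lower without control replicate 3. Dlk1, the secreted inhibitor of adipogenesis, measured 7629, 7419 and 7336 CPM against 6205, 6804 and 7523 CPM (log2 0.12, adjusted p = 0.379). The overlap came from control replicate 3, and without it Dlk1 was called higher (log2 0.19, adjusted p = 0.0246). Ppargc1a, a coactivator that drives mitochondrial biogenesis, was higher and in the core, at 47.2, 51.1 and 48.0 CPM against 31.3, 28.6 and 24.7 CPM (log2 0.79, SE 0.107, adjusted p = 0.00419).

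Among 16 tested NFAT5 and tonicity genes only Slc38a2, a sodium-coupled transporter of small neutral amino acids, was called (3 lower without control replicate 3). It measured 241, 241 and 237 CPM in the libraries labelled FHL2 against 328, 316 and 304 CPM in the controls (log2 -0.40, SE 0.0658, adjusted p = 0.0109). Slc7a5, the large neutral amino acid transporter, went the other way, at 229, 259.8 and 255 CPM against 186, 188 and 191 CPM (log2 0.40, adjusted p = 0.0192). Both genes were without overlap between the groups, and in Slc38a2 the libraries labelled FHL2 were nearly level.

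Calls among proliferation genes varied with the libraries and settings of the fit. None of 37 tested S phase genes and none of 29 tested G2 and mitosis genes was called, with medians of -0.00485 and 0.0122. Mki67, a marker of cycling cells, ranged from 46.9 to 66.2 CPM against 43.9 to 95.0 CPM (log2 -0.47, adjusted p = 0.323). Without control replicate 3, which had the lowest value, Mki67 was called lower (log2 -0.74, adjusted p = 0.00166), the G2 and mitosis list had 3 lower and the S phase list still 0. With every library kept, Mki67 was also called lower with no filter on low counts, and with the replicate block and GC offset together. Ccnd3, a D-type cyclin also used during differentiation, was 1.28-fold higher, at 139, 142 and 151 CPM against 107, 111 and 119 CPM (adjusted p = 0.0369). None of 21 tested p53 targets, 18 clock genes, 14 imprinted growth regulators and 10 mitochondrially encoded genes was called. With control replicate 3 left out the p53 list had 4 lower and the clock list 1 higher. The imprinted list then had 1 higher and the mitochondrially encoded list 1 lower. With every library kept, the GC offset gave 4 lower in the p53 list and 1 in each direction in the clock list. It gave 2 higher in the imprinted list and 3 higher in the mitochondrially encoded list. In the fit as reported 9 of the 10 mitochondrially encoded genes had a positive difference, and without control replicate 1 the list had 1 higher. Lamp1, the main glycoprotein of the lysosome membrane and one of the most abundant genes that changed, was 1.22-fold higher at 1978, 2066 and 2063 CPM against 1649, 1654 and 1718 CPM (adjusted p = 0.0235).

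At day 2, in libraries that the day 0 comparison does not use, 210 of the 246 genes kept the sign of their difference, 107 of 126 higher and 103 of 120 lower. Of the genes tested at day 0 that were also among the 14435 tested on the 12 libraries, 58.5% had the same sign on both days. Of the 246, 41 were called at day 2 in the same direction (13 higher, 28 lower) and 2 in the other direction, where 299 genes (2.07%) were called at day 2 in all. Sod3 was 0.74 higher at day 2 on the log2 scale (adjusted p = 0.000678), Thy1 0.40 (adjusted p = 0.0198) and Timp1 0.66 (adjusted p = 0.0226). Tagln had a log2 difference of 2.33 (adjusted p = 0.00354). Grem1 (log2 -2.19, adjusted p = 0.000913), Lrig1 (log2 -1.04, adjusted p = 0.00077), Atp2b4 (log2 -2.07, adjusted p = 0.0267), Pgk1 (log2 -0.58, adjusted p = 0.0379) and Pfkl (log2 -0.95, adjusted p = 0.00212) were lower on both days.

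Other genes were called on day 0 alone. Id1 had a log2 difference of 0.12 at day 2 (adjusted p = 0.659), Mmp9 -0.35 (adjusted p = 0.127) and Klf2 0.23 (adjusted p = 0.587). A call on one day and not on the other does not show that the days differ. The difference between the day 2 and day 0 effects, tested as an interaction over all 12 libraries, passed for 1 gene of 14435 (0.00693%), Tnc, and 996 genes had an unadjusted p under 0.05. Of the 246 day 0 genes 40 had an unadjusted interaction p under 0.05. These genes were picked by their day 0 difference, which is itself a part of the interaction. Their count therefore cannot be set against that of all genes. Gbp2, the other gene called in opposite directions, was 0.99 higher at day 2 on the log2 scale (adjusted p = 0.0161), and its unadjusted interaction p was 7.61e-05.

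**Figure D4:**
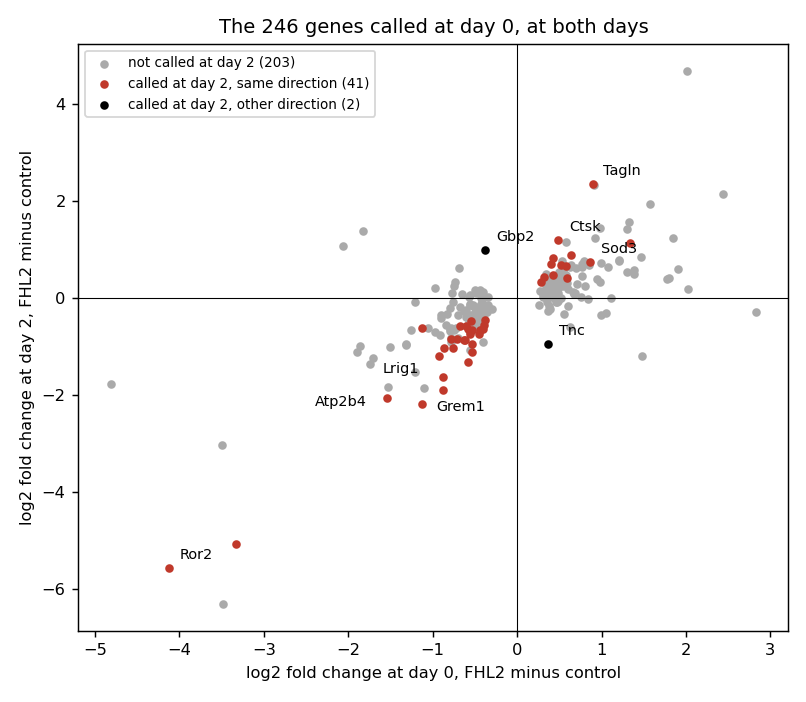
Log2 fold change (libraries labelled FHL2 minus control) at day 2 against that at day 0 for the 246 genes called at day 0. Red points are the 41 also called at day 2 in the same direction, black points the 2 called in the other direction (Tnc and Gbp2), and grey points the 203 not called at day 2.

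Some called names are uncertain. Gm5886, a predicted gene, had the smallest p of all, with 286 ± 31.0 CPM in the libraries labelled FHL2 and 114 ± 8.48 CPM in the controls (log2 1.33, adjusted p = 6.61e-05), and is in the core. Predicted genes, Rik clones, pseudogenes and identifiers without a symbol made up 15 of the 126 higher genes and 4 of the 120 lower genes, or 11.9% and 3.33%, against 17.2% of all genes tested. Of 93 ribosomal protein pseudogenes tested 4 were higher and 0 lower. Reads of such near-identical copies can be divided between them and their parent genes by counting, so their values, Gm5886 included, are less certain than those of the named genes.

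**Figure D5:**
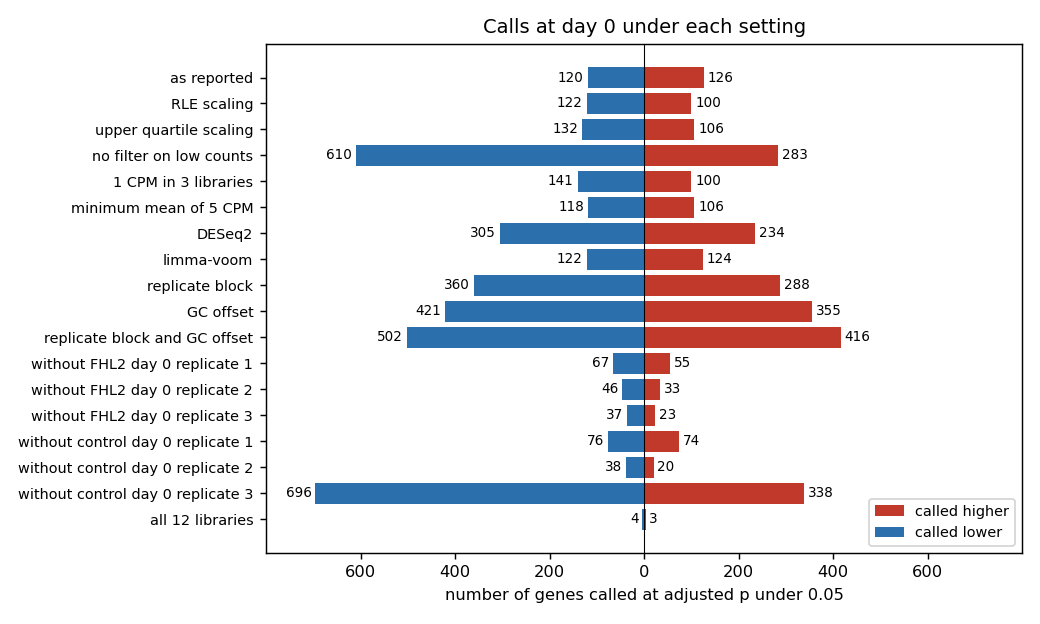
Number of genes called lower (blue, to the left) and higher (red, to the right) at day 0 under each alternative analysis. The fit as reported has 120 and 126, the fit without control replicate 3 has 696 and 338, and the fit over all 12 libraries has 4 and 3.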

How the data were processed

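Polyadenylated RNA was sequenced in 12 stranded libraries (TruSeq) of 3T3-L1 cells, and the 6 of day 0 are analysed here. The authors deposited 1 table of raw read counts with a column per library and a row for each of 55414 Ensembl identifiers, of which 52081 were matched to a symbol. The submitters' processing notes name HISAT2 2.2.1 and HTSeq 0.11.0, with Trimmomatic 0.39, FastQC 0.11.9, limma and R 4.1.0, and build GRCm39. For settings, strand handling and annotation release: not given in the sources used here. Groups came from the labels alone.

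The day 0 counts alone were fitted with edgeR 4.0.16 (R 4.3.3): filterByExpr by group, TMM scaling, the quasi-likelihood test, 2-sided, with Benjamini-Hochberg adjustment over the 14044 genes that passed the filter. Called means an adjusted p below 0.05. Levels are CPM after TMM scaling, and a log2 difference is the libraries labelled FHL2 minus control. The biological coefficient of variation was 0.12 at day 0 and 0.283 over all libraries. The day 2 comparison and the interaction come from a fit of all 12 libraries, whose shared spread is larger.

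The rule for named genes took Fhl2, Nfat5, Dlk1, Pparg, Cebpa, Cebpb, Cebpd, Fabp4, Col1a1 and Mki67. It added the 10 largest rises and 10 largest falls by fold and the 5 largest of each by CPM difference, among called, non-overlapping genes whose mean reached 5 CPM and that had no Gm, Rik or pseudogene name, and up to 4 called members of each of 39 lists. The members and lists were chosen with earlier results of these data known. Alternatives were scaling by upper quartile or RLE, no filter, 1 CPM in at least 3 libraries, a mean of at least 5 CPM, DESeq2 1.42.0, limma-voom (limma 3.58.1), the replicate number as a block, an offset that follows GC content (mgcv 1.9.3, with GC from GENCODE M21 for 99.8% of tested genes), both together, each library left out, and all 12 libraries. The tests were checked on simulated counts. No interval of a single count is given, and reads carry no molecular tags, so depth sets counting error only. Promoter sequences come from a RefSeq table of GRCm38.p6, a build other than that of the counts. Results on some genes are not reported here.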

Additional observations from a re-analysis of the deposited data

Results flagged for a closer look

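Tnc, which encodes tenascin C, was singled out because its difference between the lines was not the same on both days by the interaction test over all 12 libraries (edgeR's quasi-likelihood test). On the scale of that fit it measured 416.7, 470.8 and 456.7 CPM in the libraries labelled FHL2 and 359.9, 341.2 and 361.5 CPM in the controls at day 0. At day 2 it measured 206.3, 186 and 161.5 CPM against 375.4, 408.2 and 292.4 CPM. The libraries labelled FHL2 were thus all above the controls at day 0 and all below them at day 2. The day 2 difference minus the day 0 difference was -1.30 on the log2 scale (SE 0.168, adjusted p = 0.0276). Tnc kept that call under the other scalings, filters, tools, the replicate block and the GC offset, and lost it in 9 of the 12 fits that left out 1 library, where its adjusted p ranged from 0.00143 to 0.171.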

How the results depend on the processing

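Every alternative kept the direction of every called gene named. Over the named genes 1165 comparisons of a gene with an alternative stayed on their side of the threshold, 317 lost a call and 12 gained one. These totals include the fit over all 12 libraries, whose shared spread is larger, and the alternatives of the interaction test for Tnc. The number of genes called at day 0, 246 as reported, was 893 with no filter on low counts, 539 with DESeq2, 776 with the GC offset and 7 over all 12 libraries (600 at an unadjusted p under 0.05). It was 222 with RLE scaling, 238 with upper quartile scaling and 246 with limma-voom. Leaving out each library in turn gave 58 to 1034, the most without control replicate 3. The interaction, 1 gene as reported, gave 2 with upper quartile scaling, 91 with no filter, 66 with DESeq2, 6 with the GC offset, and 0 to 6 with each library left out, the 6 without control day 2 replicate 2. The replicate numbers were not taken as a pairing: deviations of same-numbered libraries correlated at 0.289, -0.163 and 0.28, and FHL2 replicate 2 correlated best with control replicate 3 (0.196). With the replicate block 648 genes were called, and 918 with the replicate block and the GC offset. The log2 difference followed GC content across 10621 genes (Spearman rho 0.175, genes not being independent), with class medians from -0.07 in the genes lowest in GC content to 0.04 in the class with the highest median, and its part in the calls was not tested beyond the GC offset. Depth of 14686042 counts in the shallowest library limits what can be said of genes near 1 CPM, such as Ror2.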

Other observations

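Some gene families outside the lists were grouped by symbol after their values were seen, and are given as counts with no test. Small heat shock proteins hold unfolding proteins in solution. Of 5 genes tested with a symbol of that family, 3 were higher and 0 lower in the libraries labelled FHL2. Of all genes tested 0.897% were called higher and 0.854% lower. Hspb11 (log2 0.01, adjusted p = 0.975) was not called, nor was Hspb2, which was scarce, at 0.528 against 1.02 CPM (log2 -0.92, adjusted p = 0.533). Hspb8, in the core of 42, measured 77.8 ± 1.46 against 50.4 ± 2.93 CPM (SD, n = 3; log2 0.63, adjusted p = 0.00371), Cryab 207 ± 15.1 against 155 ± 15.3 CPM (log2 0.42, adjusted p = 0.0346) and Hspb6 58.5 ± 3.55 against 43.1 ± 2.52 CPM (log2 0.44, adjusted p = 0.0323). Of 36 genes with a numbered Nduf symbol, most of them subunits of complex I of the respiratory chain, 30 had a positive difference. Of these 36, 2 were called higher (Ndufb6 and Ndufa3) and 0 lower, with a median of 0.16.

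All 8 tested complement factors had a negative difference, with a median of -0.44. C1s1, a protease of the classical pathway and in the core, was at 73.4 ± 5.08 against 108 ± 4.51 CPM (log2 -0.56, adjusted p = 0.00647). Semaphorins, guidance proteins of axons and vessels, had 0 higher and 2 lower of 13 tested: Sema5a, in the core (log2 -0.79, adjusted p = 0.0101), and Sema7a (log2 -1.21, adjusted p = 0.0107). Adamts9, a protease of versican and in the core, was lower as well (log2 -1.06, adjusted p = 0.00148). Maf, a transcription factor and in the core, was at 130.4 ± 2.37 against 187 ± 6.197 CPM (log2 -0.52, adjusted p = 0.00399).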
